A study of Triticum aestivum with 12 samples.

Results

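The subject is a group of 37 probe sets of the Affymetrix wheat array whose signal was higher in roots of the wheat line Pavon-TL than in roots of the lines Pavon76 and Null Control. They were chosen by their log2 values from 61141 probe sets, with 2 conditions: the mean of the 4 Pavon-TL arrays lay at least 0.5 above the mean of the 4 Pavon76 arrays and at least 0.5 above that of the 4 Null Control arrays, and the lowest Pavon-TL array lay above the highest of the 8 other arrays. They make up 0.0605% of the probe sets. The values that chose them are those of Pavon-TL against both other lines, so these differences are given as a description, and no test of them is offered.

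Roots of 18-day-old seedlings grown in sand were sampled, and each of the 12 arrays measured 1 RNA sample. The 6 groups of 2 arrays were Pavon-TL under water stress and well water, Pavon76 under water stress and well water, and Null Control under water stress and well water. Water stress was watering on alternate days, and well water was daily watering. Pavon76 is a cultivar of bread wheat, and Pavon-TL, as known from beyond the labels, is a translocation stock derived from it with a chromosome segment of a wild wheat relative. The labels do not describe Null Control. Nor do they state that the arrays of 1 group came from different plants, so the spread between arrays may be technical. The arrays reached medians of 5.89 to 5.93 on the log2 scale, and their number limits the precision of each value.

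A translocation line carries a piece of a relative's chromosome in place of a piece of wheat chromosome. Bread wheat itself carries several closely related copies of most genes, and a probe on an array takes up any labelled transcript whose sequence matches it well enough. A probe set is the group of short probes that reports on one transcript, and its value combines all of them. In its name, Ta or TaAffx and the number after it give the transcript cluster of the array's design. The ending _at marks a plain probe set, _a_at one that is shared by transcripts of the same gene, _s_at one shared by several transcripts, and _x_at one in which some probes also match other transcripts.

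The labelled tissue was checked against marker genes. The 3 probe sets of TaDMAS1, an enzyme that makes iron-binding phytosiderophores in grass roots, had mean values of 9.46 to 10.69, all above the median of all values (5.91). Of 34 probe sets matched as leaf photosynthesis genes, 23 had means under the first quartile (4.34), and the list's median was 3.85 in Pavon-TL and 3.85 in the other lines. These 34 stood for only 5 genes, most of them being probe sets of rbcl, and the root list held 1 gene, so the check is narrow. Of the 34, 28 lay below the median of all values, while the probe set of PsbO had a mean of 6.99. The highest in that list was a probe set of the Rubisco gene rbcl at 11.94, and the match by synonyms also took in IVR1, an invertase gene. Of 20 probe sets matched as grain storage genes, 12 lay below the first quartile, with a median of 4.14 in Pavon-TL and 4.08 in the other lines. Of the 20, 16 lay below the median of all values. The highest was the probe set of TaGlu1a, with a mean of 11.15, above 10.69, the highest of TaDMAS1. It entered the list by its symbol alone, so it is not shown to be a storage gene. The next highest was a probe set of Prolamin at 6.54. None of the 37 probe sets belonged to any of these lists, nor to the lists of dehydrins and LEA proteins (10 probe sets), oxidative stress enzymes (13), defence genes (4), cell division and chromatin (20), reference genes (13) or transcription factors (1). No probe set matched the list of root development, auxin and brassinosteroid genes. The lists were matched by gene name, and only 2 of the 37 had a gene in the annotation (2.07% of all probe sets had one). The rest of the 37 could not match any list, so their absence from the lists does not show what they encode.

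The size of the difference varied widely within the group. The smaller of the 2 differences of a probe set ran from 0.50 to 5.58 on the log2 scale, with a median of 0.76. It was at least 4 in 2 probe sets, at least 2 in 6, at least 1 in 10, and under 1 in the other 27. The median level over the 37 was 8.81 in Pavon-TL and 7.62 in the other 8 arrays. In 10 of them the mean of the other 8 arrays lay below the median of all values, and in 7 of these 10 the Pavon-TL mean lay above it. In 4 the mean of the other arrays lay below the first quartile. A fold change against such a low level may be understated on this scale, which was not tested. No detection call was used here, so the low values may be background.

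**Figure D1:**
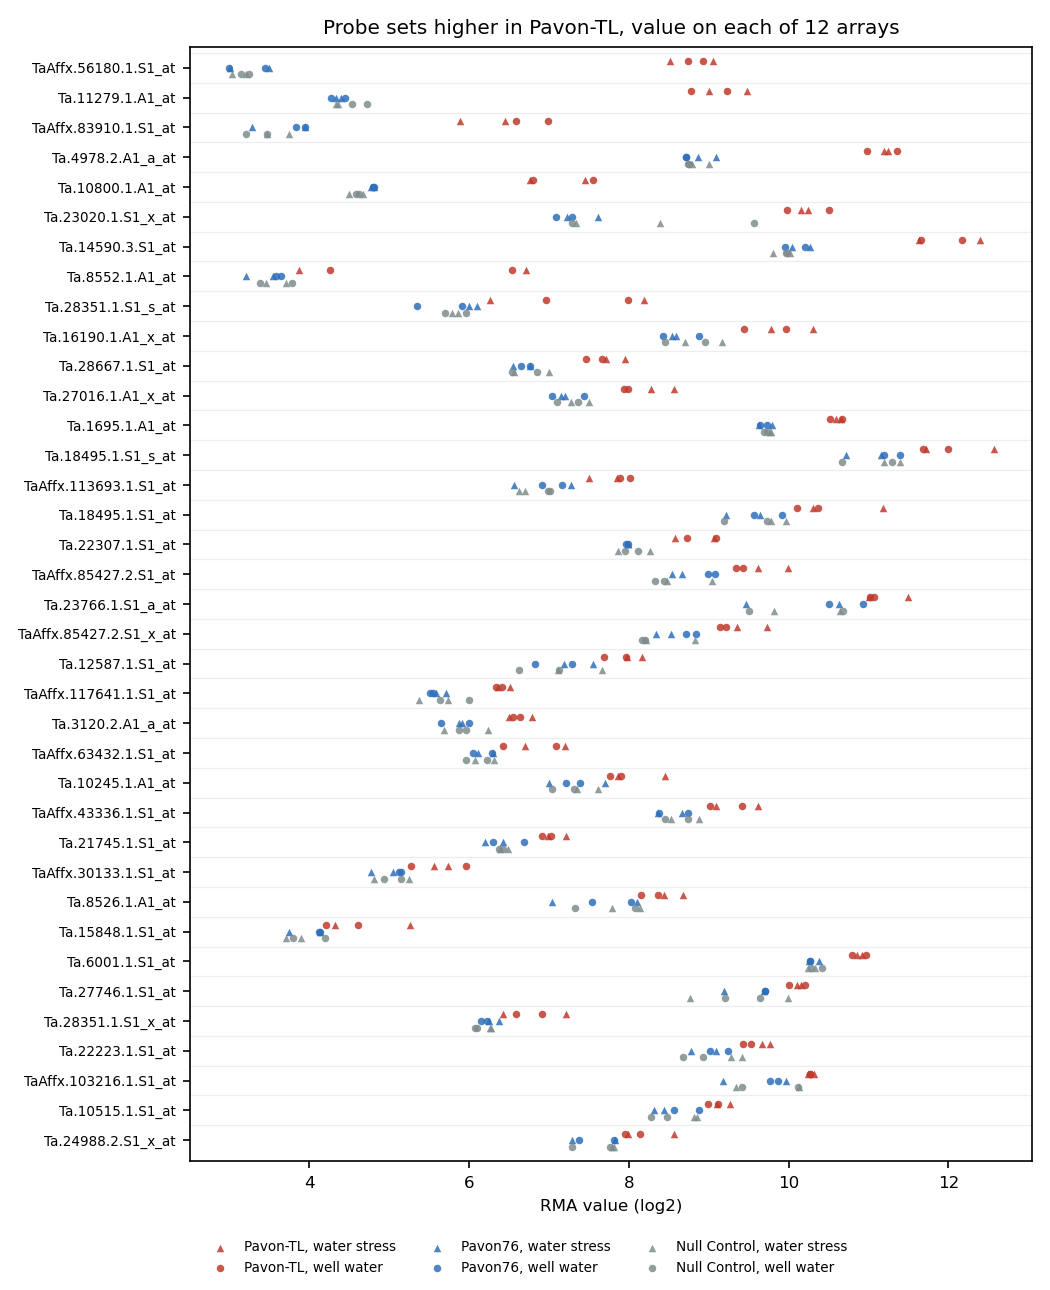
RMA values (log2, horizontal axis) of the 37 probe sets on each of the 12 arrays, ordered from the highest smaller difference at the top (5.58) to the lowest at the bottom (0.50); colours stand for lines and symbols for the water conditions. In each row the 4 Pavon-TL points lie right of the 8 others, which the choice of probe sets required; the distance does not follow the order of the rows throughout, being 0.091 in Ta.8552.1.A1_at, the eighth from the top, and 0.38 in Ta.6001.1.S1_at, near the bottom.

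The largest difference was that of TaAffx.56180.1.S1_at, which has no gene in the annotation. In Pavon-TL it read 8.52 and 9.06 under water stress and 8.74 and 8.93 under well water. The arrays of Pavon76 lay between 2.99 and 3.50, and those of Null Control between 3.04 and 3.25. The 8 other arrays thus lay under that quartile, while the 4 Pavon-TL arrays lay well above the median. Its mean was 8.81 ± 0.23 over the 4 Pavon-TL arrays (SD, n = 4) and 3.20 ± 0.19 over the 8 others (SD, n = 8), a difference equal to 49.0-fold.

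Ta.11279.1.A1_at had the same shape. In Pavon-TL it ran from 8.78 to 9.48, with its highest value on the second stressed array. The other arrays ran from 4.27 to 4.45 in Pavon76 and from 4.34 to 4.73 in Null Control. Its mean was 9.12 ± 0.30 over the 4 Pavon-TL arrays (SD, n = 4) and 4.43 ± 0.14 over the 8 others (SD, n = 8), a difference equal to 25.9-fold. Both probe sets were dim in the other lines and above the median in Pavon-TL, and each is the only probe set of its cluster.

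Of the next probe sets by size, some also had low values in the other lines. TaAffx.83910.1.S1_at read 5.89 and 6.45 under water stress and 6.59 and 6.99 under well water in Pavon-TL, against 3.29 to 3.95 in Pavon76 and 3.21 to 3.75 in Null Control. It averaged 6.48 ± 0.45 (SD, n = 4) in Pavon-TL, and its 2 stressed Pavon-TL arrays were both lower than its 2 well-watered ones. Ta.10800.1.A1_at read 6.76 and 7.45 under water stress and 7.55 and 6.80 under well water in Pavon-TL, against 4.77 to 4.82 in Pavon76 and 4.50 to 4.68 in Null Control. Here the spread within Pavon-TL (SD 0.42, n = 4) was larger than that over the other 8 arrays (SD 0.12, n = 8).

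Others were bright in every line and brighter in Pavon-TL. Ta.4978.2.A1_a_at read 11.19 and 11.24 under water stress and 10.98 and 11.36 under well water in Pavon-TL, against 8.71 to 9.10 over the other 8 arrays. Its means of 11.19 ± 0.16 over the 4 Pavon-TL arrays (SD, n = 4) and 8.83 ± 0.14 over the 8 others (SD, n = 8) stood 2.36 apart, equal to 5.12-fold. Ta.14590.3.S1_at read 12.39 and 11.64 under water stress and 12.17 and 11.66 under well water in Pavon-TL, against 9.96 to 10.27 in Pavon76 and 9.81 to 10.02 in Null Control. With Ta.4978.2.A1_a_at and Ta.18495.1.S1_s_at it is one of the 3 probe sets with the highest Pavon-TL means, from 11.19 to 11.99. The 3 with the lowest Pavon-TL means were Ta.15848.1.S1_at at 4.61, Ta.8552.1.A1_at at 5.35 and TaAffx.30133.1.S1_at at 5.63, all below the median of all values.

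In several of the 10 probe sets with the largest differences, arrays of 1 line disagreed. Ta.23020.1.S1_x_at read 10.25 and 10.15 under water stress and 10.50 and 9.98 under well water in Pavon-TL. In Pavon76 it lay between 7.10 and 7.61. In Null Control it read 8.39 and 7.34 under water stress and 7.29 and 9.57 under well water, so 1 array of each water condition stood above the rest of the other lines. The second well-watered Null Control array left a distance of 0.42 to the lowest Pavon-TL array, and Null Control stood 0.84 above Pavon76 in the mean, the highest such difference in the group. Over the 37 probe sets, Null Control minus Pavon76 ran from -0.28 to 0.84 with a median of 0.02, and 30 lay within 0.2 of 0. The rule itself limits this difference, since both lines had to lie below Pavon-TL.

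Ta.8552.1.A1_at was split by replicate number, the 1 or 2 that the labels give the arrays of a group. In Pavon-TL it read 3.87 under water stress and 4.26 under well water on the arrays numbered 1, and 6.72 under water stress and 6.53 under well water on those numbered 2. The other lines ran from 3.21 to 3.65 in Pavon76 and from 3.39 to 3.78 in Null Control on arrays of either number. Pavon-TL minus the mean of the other lines was therefore 0.58 on arrays numbered 1 and 3.03 on arrays numbered 2. Its 4 Pavon-TL values do not form 1 group, and its mean difference of 1.81 describes neither pair. Ta.16190.1.A1_x_at, the tenth by size, read 9.78 and 10.30 under water stress and 9.44 and 9.97 under well water in Pavon-TL, against 8.43 to 8.87 in Pavon76 and 8.45 to 9.17 in Null Control.

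**Figure D2:**
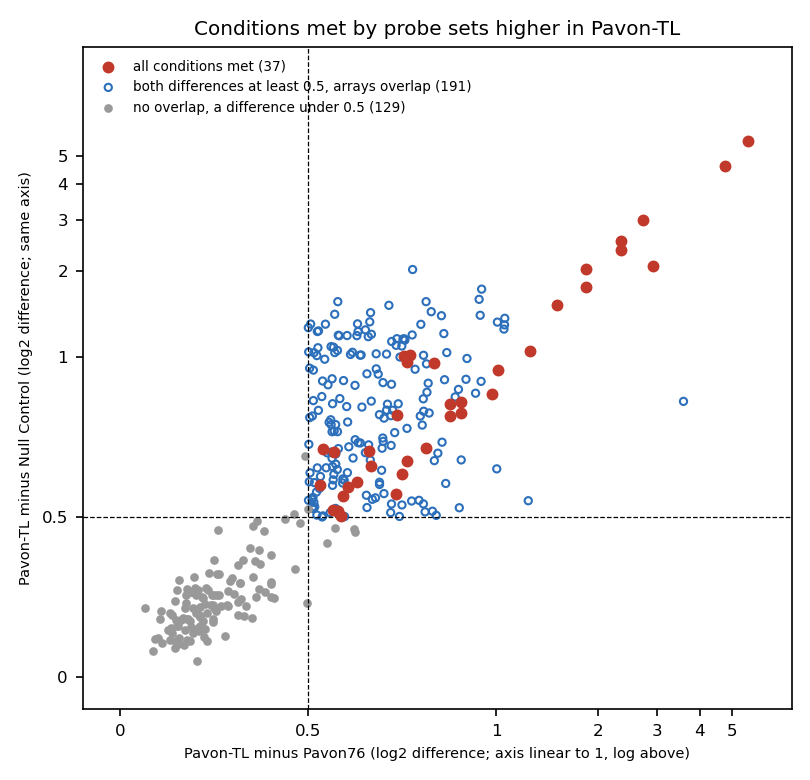
Difference of means (log2) of Pavon-TL from Pavon76 (horizontal) and from Null Control (vertical), on axes that are linear up to 1 and logarithmic above; each point is 1 probe set and dashed lines mark 0.5. Of the 228 probe sets with both differences at least 0.5, the 191 open circles had overlapping arrays and the 37 filled red points did not; the 129 grey points did not overlap but had a difference under 0.5.

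The conditions removed different probe sets. Both differences reached 0.5 in 228 probe sets, and in 191 of these at least 1 Pavon-TL array lay at or below the highest of the other 8. The lowest Pavon-TL array lay above the 8 others in 166 probe sets (0.272% of all), of which 129 had a difference under 0.5. The probe sets just above the limit of 0.5 were Ta.24988.2.S1_x_at with a smaller difference of 0.503, Ta.10515.1.S1_at with 0.520 and TaAffx.103216.1.S1_at with 0.520. Just below it were TaAffx.13990.1.S1_at with 0.499, TaAffx.16984.1.A1_at with 0.493 and TaAffx.85427.1.S1_at with 0.479. The distance between the lowest Pavon-TL array and the highest other array was under 0.1 in 10 of the 37 and at least 1 in 6, with a median of 0.22. It was 0.0042 in Ta.27746.1.S1_at, while Ta.4903.1.A1_at missed by 0.020 although its differences were 0.89 and 0.88. Membership at the edge thus turned on distances smaller than the usual spread within a line, whose median SD over the 37 was 0.26 in Pavon-TL, 0.20 in Pavon76 and 0.22 in Null Control.

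Only 1 gene of the annotation was present in the group. It is LOC542989, which RefSeq lists as protein coding in the assembly IWGSC CS RefSeq v2.1 and gives no further name. Its probe set Ta.28351.1.S1_s_at read 8.19 and 6.26 under water stress and 7.99 and 6.96 under well water in Pavon-TL. The arrays of Pavon76 lay between 5.34 and 6.10, and those of Null Control between 5.70 and 5.97. The Pavon-TL arrays numbered 1 stood well above those numbered 2, and the lowest of them lay 0.16 above the highest of the other lines. The mean was 7.35 ± 0.90 over the 4 Pavon-TL arrays (SD, n = 4) and 5.83 ± 0.24 over the 8 others (SD, n = 8).

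The gene's probe set Ta.28351.1.S1_x_at read 7.21 and 6.42 under water stress and 6.92 and 6.59 under well water in Pavon-TL, against 6.15 to 6.37 in Pavon76 and 6.08 to 6.28 in Null Control. The remaining one, Ta.28351.1.S1_at, read 5.64 and 4.83 under water stress and 5.69 and 5.05 under well water in Pavon-TL, against 4.49 to 4.98 in Pavon76 and 4.49 to 4.65 in Null Control. It missed the rule because the second stressed Pavon-TL array lay below the highest Pavon76 array, although it differed from Pavon76 by 0.64. All 3 probe sets of LOC542989 had their Pavon-TL arrays numbered 1 above those numbered 2. In Ta.28351.1.S1_s_at Pavon-TL minus the other lines was 2.13 for number 1 and 0.90 for number 2, and in Ta.28351.1.S1_x_at 0.84 and 0.29. The endings _s_at and _x_at of the 2 probe sets in the group mean that transcripts other than those of LOC542989 may contribute to them.

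A second annotated gene came close and was looked up after the values were seen. LOC606326 had both differences above 0.5 in 2 probe sets whose arrays overlapped. Its probe set Ta.28539.1.A1_x_at read 9.08 and 7.92 under water stress and 8.85 and 7.84 under well water in Pavon-TL, against 7.98 and 7.01 under water stress and 8.21 and 7.75 under well water in Pavon76. Null Control read 7.94 and 7.05 under water stress and 7.76 and 7.14 under well water. Arrays numbered 1 were above those numbered 2 in all 6 groups of this probe set. Taken within a number, the Pavon-TL arrays lay above the 4 others by 0.64 for number 1 and by 0.088 for number 2. This did not hold in the gene's Ta.5367.2.S1_x_at. There Pavon-TL read 6.86 and 5.92 under water stress and 6.61 and 5.50 under well water, against 5.91 and 4.64 under water stress and 6.26 and 5.86 under well water in Pavon76, and 4.89 to 5.93 in Null Control. The well-watered Pavon-TL array numbered 2 lay below the well-watered Pavon76 array of that number.

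In all, 79 probe sets met the rule on the arrays numbered 1 and again on the arrays numbered 2, a count added after the data were seen. Of these, 27 are among the 37 and 52 are not. The same values chose the 37, so this overlap is a description. On 1 number alone, the rule was met by 380 probe sets for number 1 and 307 for number 2. The deviations of arrays from their group means correlated between 0.606 and 0.795 across probe sets for the 15 pairs of groups when arrays of the same number were set together, so the numbers mark a shared difference between arrays that the labels do not name. Within the group of 37, the difference of Pavon-TL from the other lines was over 1.5 times larger in one number than in the other for 11 probe sets, of which 5 were larger in number 1 and 6 in number 2. The median difference was 0.89 on arrays numbered 1 and 0.81 on arrays numbered 2.

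**Figure D3:**
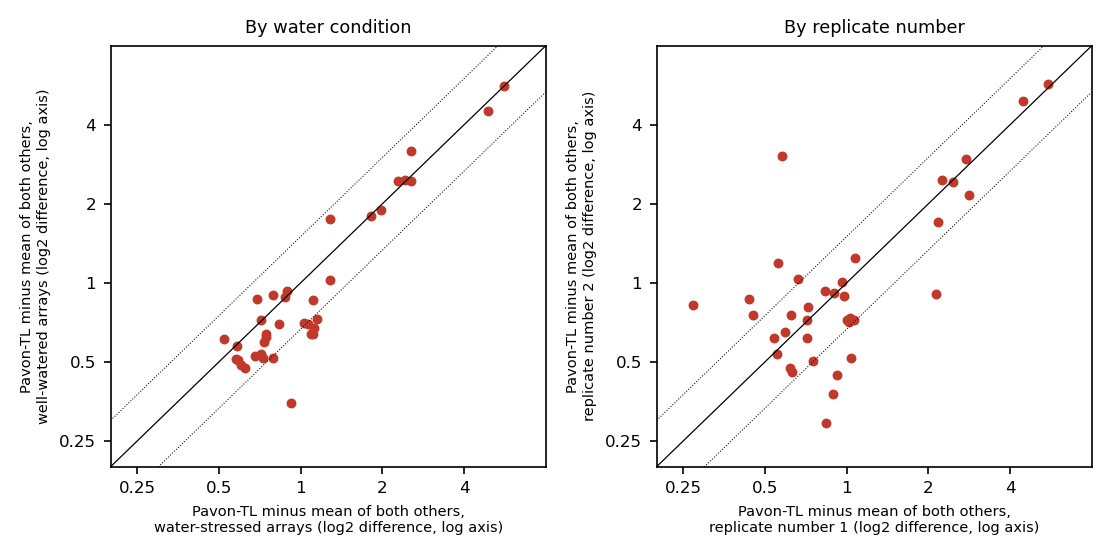
Pavon-TL minus the mean of both other lines (log2 difference on logarithmic axes) for the 37 probe sets, on water-stressed against well-watered arrays (left) and on arrays numbered 1 against those numbered 2 (right); the solid line marks equal values and dotted lines a ratio of 1.5. On the left 7 points lie beyond the dotted lines, all toward water stress; on the right 11 do, to both sides.

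Transcript clusters show how far a gain was shared by other probe sets of the same design. The 37 probe sets fell into 34 clusters, and 25 of them were the only probe set of their cluster. In 3 clusters, 2 probe sets were in the group: Ta.28351 (above), Ta.18495 and TaAffx.85427. Another 16 probe sets of the same clusters were not in the group. Of these, 13 had positive differences from both lines, and 2 had both differences at or above 0.5 with overlapping arrays. Some of the 13 were near 0, such as Ta.6001.2.S1_at with 0.04 and 0.13. Over all 61141 probe sets, 228 had both differences at or above 0.5. The share of all probe sets with both differences positive was not counted, so the 13 is given as a description. No cluster held a probe set that met the rule and another that met its mirror image, lower in Pavon-TL.

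The 2 probe sets of Ta.18495 moved together. Ta.18495.1.S1_s_at read 12.57 and 11.72 under water stress and 12.00 and 11.68 under well water in Pavon-TL, against 10.72 to 11.39 in Pavon76 and 10.67 to 11.40 in Null Control. Ta.18495.1.S1_at read 11.18 and 10.30 under water stress and 10.37 and 10.11 under well water in Pavon-TL, against 9.21 to 9.92 in Pavon76 and 9.19 to 9.96 in Null Control. In both, the first stressed Pavon-TL array was the highest of all 12.

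In cluster TaAffx.85427, TaAffx.85427.2.S1_at read 9.99 and 9.61 under water stress and 9.43 and 9.34 under well water in Pavon-TL, against 8.54 to 9.08 in Pavon76 and 8.33 to 9.05 in Null Control. TaAffx.85427.2.S1_x_at followed it at 9.73 and 9.35 under water stress and 9.22 and 9.14 under well water in Pavon-TL, against 8.34 to 8.84 in Pavon76 and 8.16 to 8.82 in Null Control. The cluster's TaAffx.85427.1.S1_at also had its 4 Pavon-TL arrays above the 8 others, at 4.68 to 5.17 in Pavon-TL against 4.26 to 4.64 in the other lines, with differences just under 0.5. All probe sets of this cluster thus lay higher in Pavon-TL, at very different levels of signal. Probe sets of 1 cluster may share probes or target sequence, so they are not independent readings.

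Other clusters split. Of the 5 probe sets of Ta.14590, Ta.14590.3.S1_at stood 1.85 above Pavon76 and 2.02 above Null Control. The next, Ta.14590.1.S1_a_at, stood 0.46 above Pavon76 and 0.47 above Null Control, and the 3 others differed by -0.15 to 0.11 from either line. In Ta.27016, Ta.27016.1.A1_x_at differed by 0.99 from Pavon76 and 0.89 from Null Control, and the 3 others by 0.07 to 0.18 from either line. In Ta.6001, Ta.6001.1.S1_at differed by 0.59 from Pavon76 and 0.57 from Null Control. Ta.6001.1.S1_x_at, whose 4 Pavon-TL arrays also lay above the 8 others, differed by 0.38 and 0.46, Ta.6001.1.S1_a_at by 0.09 and 0.27, and Ta.6001.2.S1_at by 0.04 and 0.13. In these clusters the gain was not shared by all probe sets of the cluster.

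**Figure D4:**
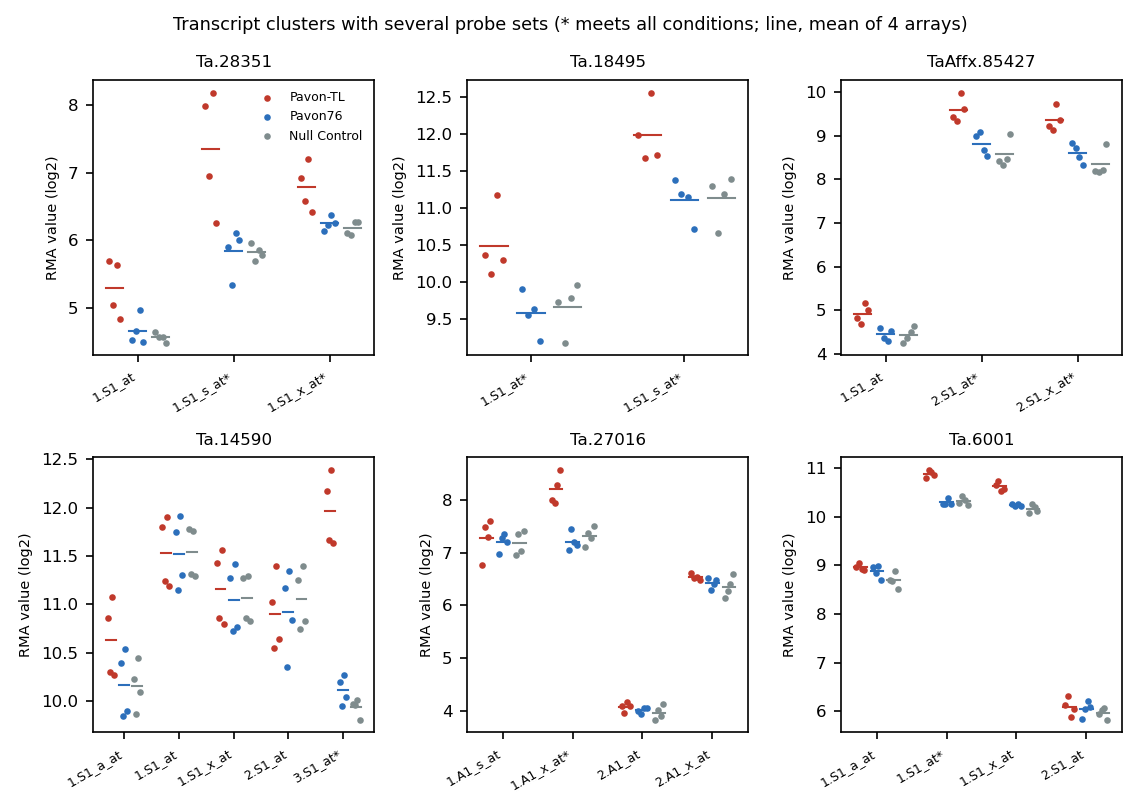
RMA values (log2) of every probe set in the 3 clusters with 2 probe sets in the group (top) and the 3 clusters with the most probe sets outside it (bottom); points are arrays, short lines are means of 4 arrays, and asterisks mark probe sets in the group. In Ta.28351 and TaAffx.85427 each probe set is higher in Pavon-TL, while in Ta.14590 and Ta.27016 1 probe set stands apart from the rest.

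The kinds of probe sets in the group were compared with the array as a description. Of the 37, 27 had names starting with Ta (73.0%, against 51.4% of all probe sets) and the rest with TaAffx. The mirror image of the rule, lower in Pavon-TL, found 127 probe sets, of which 63.8% had names starting with Ta. Endings were _at in 26 of the 37 (70.3%, against 79.2% of all), _x_at in 6 (16.2%, against 11.0%), _a_at in 3 (8.11%, against 5.43%) and _s_at in 2 (5.41%, against 4.31%). The median of the smaller difference was 0.76 for the 37 and 1.46, in the downward direction, for the 127. Both differences reached 1 in 10 of the 37 and in 84 of the 127, and 4 in 2 and in 21. The numbers of higher and lower probe sets share the same arrays and limits.

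Watering was not part of the rule. The response of the 37 probe sets to water stress was tested with limma on all 61179 probe sets other than Affymetrix controls. The values that chose the 37 also enter the water differences, so the tests are not independent of the choice. Sign counts of the 37 beside those of all probe sets are therefore a description. The non-overlap condition bounds only the lowest Pavon-TL array and the highest of the other arrays. The spread within a line was not smaller in the 37. Their median SD was 0.26 in Pavon-TL, 0.20 in Pavon76 and 0.22 in Null Control. Over the probe sets they were chosen from, it was 0.16, 0.15 and 0.15. The median size of the water difference within Pavon-TL was 0.19, against 0.10 over all probe sets. None of the 37 passed a Benjamini-Hochberg adjusted p of 0.05 in any of the 5 comparisons: water stress averaged over the lines, within Pavon-TL, within Pavon76, within Null Control, or the difference between the effect in Pavon-TL and the mean effect in the other lines. No probe set on the array passed in these comparisons either (0%). With the replicate number as a block, 0 of the 37 passed again, against 0.00817% of all probe sets for the average, 0.00163% within Null Control and 0% in the other 3.

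Averaged over the lines, 22 of the 37 had positive and 15 negative water differences (49.5% of all probe sets were positive), from -0.24 to 0.36, with a median of 0.05. An unadjusted limma p under 0.05 was reached by 1 of the 37 (2.70%), against 4.28% of all probe sets, and with the block by 4 (10.8%), against 10.1%. The one without the block was Ta.12587.1.S1_at, which differed by 0.36 ± 0.15 (SE, limma adjusted p = 1.00, and 0.329 with the block). It read 7.98 and 8.16 under water stress and 7.97 and 7.69 under well water in Pavon-TL. In Pavon76 it read 7.19 and 7.55 under water stress and 6.82 and 7.29 under well water, and in Null Control 7.11 and 7.67 under water stress and 6.63 and 7.12 under well water. Its water difference was positive in 6 of 6 pairs of arrays with the same line and number, the only one of the 37 for which this held (2.83% of all probe sets). None was negative in 6 of 6 (2.54% of all). The next by p, Ta.22223.1.S1_at, differed by 0.19 ± 0.08 (SE), mostly through Null Control.

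Within Pavon-TL, 29 of the 37 had positive and 8 negative water differences, with a median of 0.13. Over all probe sets 47.6% were positive and the median was -0.01. An unadjusted limma p under 0.05 was reached by 2 (5.41%), against 2.5% of all, and with the block by 6 (16.2%), against 5.99%. Ta.27016.1.A1_x_at differed by 0.46 ± 0.17 (SE): it read 8.28 and 8.57 under water stress and 7.99 and 7.94 under well water in Pavon-TL. TaAffx.83910.1.S1_at differed in the other direction, by -0.62 ± 0.26 (SE). Neither passed (limma adjusted p = 1.00 for each, and 0.83 with the block).

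The sign counts within Pavon-TL moved with 1 array. The first stressed Pavon-TL array was the highest of the 4 Pavon-TL arrays in 20 of the 37 probe sets, while it was so in 26.5% of all probe sets. Without it, 21 of the 37 had positive and 16 negative water differences within Pavon-TL, and the median was 0.03; the remaining stressed array, numbered 2, was then set against well-watered arrays of both numbers. Without the second stressed Pavon-TL array, 28 were positive and 9 negative, with a median of 0.20. The part of this array in the result was not tested.

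In the other lines the signs were more mixed. Within Pavon76, 15 of the 37 were positive and 22 negative (54.0% of all were positive), with a median of -0.05, against 0.01 over all probe sets. An unadjusted limma p under 0.05 was reached by 1 (2.70%), against 2.84% of all, and with the block by 3 (8.11%), against 6.57%. Within Null Control, 23 were positive and 14 negative (48.4% of all were positive), with a median of 0.09, against -0.01 over all. There an unadjusted limma p under 0.05 was reached by 2 (5.41%), against 3.42% of all, and with the block by 3 (8.11%), against 8.38%.

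Some probe sets had opposite signs in the 2 lines. Ta.10515.1.S1_at differed by -0.35 ± 0.14 (SE) in Pavon76 and by 0.46 ± 0.14 (SE) in Null Control, and TaAffx.85427.2.S1_at by -0.43 ± 0.19 (SE) and 0.38 ± 0.19 (SE). Ta.22223.1.S1_at differed by 0.54 ± 0.15 (SE) in Null Control. None of these passed in limma (adjusted p = 1.00 for each), and the difference between Pavon76 and Null Control was not tested.

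**Figure D5:**
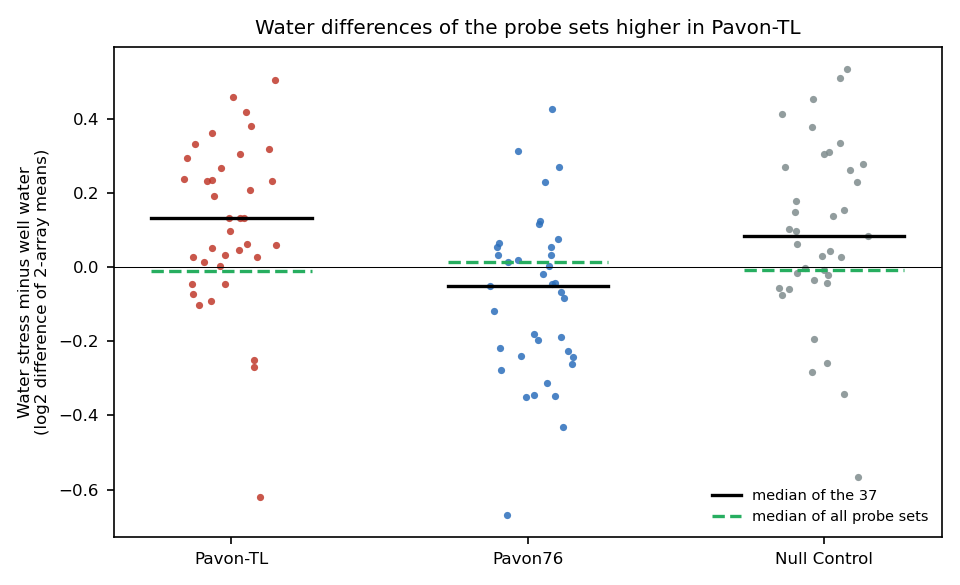
Water stress minus well water (log2 difference of 2-array means) of the 37 probe sets in each line; points are probe sets, black lines their medians and dashed green lines the medians of all probe sets. The medians of the 37 are 0.13 in Pavon-TL, -0.05 in Pavon76 and 0.09 in Null Control, and the points of each line spread to both sides of 0.

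Set against the other lines, the gain of Pavon-TL was larger under water stress in 26 of the 37 and smaller in 11, while it was larger in 47.3% of all probe sets. The median gain was 0.89 on stressed and 0.70 on well-watered arrays. It was over 1.5 times larger in one condition for 7 probe sets, all larger under stress. As a difference of water effects, the median over the 37 was 0.12, against -0.01 over all probe sets, and 0 of the 37 had an unadjusted limma p under 0.05 (1.77% of all), while 2 had one with the block (5.41%, against 4.67%). The smallest p belonged to Ta.27016.1.A1_x_at at 0.42 ± 0.21 (SE) and TaAffx.83910.1.S1_at at -0.62 ± 0.32 (SE), neither of which passed (limma adjusted p = 1.00 for each). Without the first stressed Pavon-TL array the median was 0.09, with 23 positive and 14 negative. For the probe sets with the largest gains, Pavon-TL minus the other lines was 5.60 under water stress and 5.63 under well water in TaAffx.56180.1.S1_at, and 4.88 under water stress and 4.51 under well water in Ta.11279.1.A1_at.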

How the data were processed

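The deposited log2 values were computed by the authors with RMA, per the submitters' processing notes. RMA corrects background, normalizes arrays between each other and summarises the probes of a set, so values depend on all arrays run together; its version is not given in the sources used here. The table held 61290 probe sets; 111 Affymetrix controls were left out, and 38 more of 1 transcript cluster from the choice of members. Members and lists were chosen with earlier results of these data known, and the lists by symbol patterns. Named probe sets were those with a gene, the 10 largest, those at the limit, those in shared clusters, the brightest and dimmest, and those with the smallest p. Genes were named from the array annotation (2.07% of probe sets) and the RefSeq table. No sequence of a probe set was used here. Water comparisons used limma 3.58.1 (R 4.3.3) on 6 group means, two-sided; the members were counted in Python 3.11.15. Replicate numbers paired the arrays by their correlations (15 of 15 pairs of groups over 0.1), and the block was fitted as an alternative. The SE values given above are from the fit without the block, which leaves this pairing out.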

Additional observations from a re-analysis of the deposited data

Results flagged for a closer look

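Within the 4 arrays of a line, 1 array stood apart from the rest by Dixon's test in 8 of 111 sets of values. Chance gives about 1 in 20, or 5.55 of the 111, so the count is near that number. The 4 arrays of a line differ in water condition and replicate number, while the test takes them as alike. Some of the sets also come from probe sets of the same cluster, so the flags are a description. In Pavon-TL this was the first stressed array in Ta.23766.1.S1_a_at, at 11.49, with the next at 11.07. In Pavon76 the first stressed array was the lowest at 3.29 in TaAffx.83910.1.S1_at (next 3.84), at 3.75 in Ta.15848.1.S1_at (next 4.12) and at 9.20 in Ta.27746.1.S1_at (next 9.69), and the highest at 10.38 in Ta.6001.1.S1_at (next 10.27). The second well-watered Pavon76 array was the lowest at 7.96 in Ta.22307.1.S1_at (next 7.99), a small distance among closely spaced values. In Null Control the second stressed array was the highest at 8.82 in TaAffx.85427.2.S1_x_at (next 8.21), and the second well-watered array the lowest at 7.28 in Ta.24988.2.S1_x_at (next 7.76).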

How the results depend on the processing

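The count of 37 depended on the limits. It was 10 with a limit of 1, 58 with a limit of 0.3 and 228 with no condition on overlap. With fewer arrays to separate it was 380 on the arrays numbered 1, 307 on those numbered 2, 274 on the stressed arrays and 58 on the well-watered arrays, of which 34, 30, 34 and 24 were among the 37. Group medians gave 30, arrays centred on their medians 36, and leaving out dim probe sets 30. It was 79 when the rule had to hold within each replicate number, an alternative chosen after seeing the data. Leaving out 1 array gave 32 to 58, the highest without the second well-watered Pavon76 array; 27 of the 37 met the rule in all 12 such counts. The 5 water comparisons called 0 of the 37 in each of 85 alternatives, the replicate block among them (0 called), and the smallest adjusted p was 0.329. Where an array was left out, its group's remaining array was assumed to vary like the others. For the 23 named probe sets, the difference of Pavon-TL moved by at least 1 SD in 8 of 322 alternatives; its sign was fixed by the choice of probe sets. The averaged water difference changed sign in 41, over 12 probe sets. Low signals limit the folds.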

Other observations

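The highest of the 8 other arrays, which sets the limit for each probe set, was the second stressed Null Control array in 10 of the 37 and the first well-watered Null Control array in 1. Over all probe sets these were the highest of the 8 in 14.4% and 12.8%. Among the Pavon-TL arrays, the lowest was the second well-watered array in 15 of the 37 and the first well-watered array in 10. Over all probe sets the second well-watered array was the lowest in 24.3% and the first well-watered array in 21.98%.

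Annotated genes other than LOC542989 that reached both differences of 0.5 with overlapping arrays were LOC606326, LOC100037518, LOC100037599 and LOC100049056. LOC100049056 was read by Ta.5456.1.A1_at, at 8.28 and 5.88 under water stress and 6.69 and 5.95 under well water in Pavon-TL. Its values ran from 4.98 to 6.68 in Pavon76 and from 5.08 to 6.58 in Null Control. On well-watered arrays its Pavon-TL mean of 6.32 lay below the Pavon76 mean of 6.49. The first stressed Pavon-TL array again stood above the others. LOC100037599, read by Ta.16082.1.A1_at, had 11.27 and 10.38 under water stress and 10.84 and 10.41 under well water in Pavon-TL, against 8.90 to 10.91 over the other 8 arrays. Its well-watered Pavon-TL mean of 10.63 also lay below the Pavon76 mean of 10.73. The same held for LOC100037518 in Ta.20434.1.S1_at, at 8.91 and 8.97. For LOC606326 it held in Ta.5367.2.S1_x_at, at 6.05 and 6.06, but not in Ta.28539.1.A1_x_at, at 8.34 and 7.98.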
